A study of Macaca mulatta with 144 samples.

Results

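The 84 miRNAs described here were rarely detected in serum of irradiated rhesus macaques (NHPs). They were the rows of the raw count table that had a count in 15 to 57 of 144 serum libraries and a miRNA number under 1000, once a fixed set of numbers from the imprinted DLK1-DIO3 region was left out. The table held 908 rows, of which 626 had a count in at least 1 library. A count in 58 or more libraries was found for 290 miRNAs, called common here, and a count in 1 to 14 libraries for 207. Of the 129 rows in the band of 15 to 57 libraries, 28 had a number of 1000 or above and 17 belonged to the DLK1-DIO3 numbers. The 84 miRNAs were chosen by the measured number of libraries with a count, so that how often they were detected in all is a description. The rule named no day, animal or radiation dose (RD), but it was not independent of them, since a miRNA found mostly at 1 time point could reach 15 libraries through that time point. With the libraries of a single time point left out, 21 (pre-irradiation), 21 (day 1), 19 (day 2) or 13 (day 6) of the 84 were in fewer than 15 libraries.

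A miRNA is a short RNA that is cut from a hairpin precursor and guides Argonaute proteins to matching messenger RNAs, which are then repressed. Serum carries miRNAs that cells release or lose, bound to proteins or packed in vesicles. Red blood cells and platelets supply much of it, and a miRNA made by a single organ enters at low levels. Some organ-restricted miRNAs, among them those of pancreatic acinar cells and of heart and skeletal muscle, have been used as blood markers of injury to that organ.

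The study asked which serum miRNAs follow the dose of total body gamma irradiation, the time since irradiation (TSI) and the outcome. Each of 36 NHPs (Macaca mulatta, 19 males and 17 females, juvenile to adult) was bled once ahead of irradiation, then on day 1, day 2 and day 6 afterwards. Of 6 groups with 6 NHPs each, the lowest dose was 6.0 Gy and the highest 8.5 Gy, in equal steps, all from a cobalt source, and 15 NHPs survived while 21 were deceased. Small RNA libraries were made from 5 µL of serum. Every NHP was irradiated, mildly sedated for it and given supportive care, with all samples taken before any transfusion, and each NHP was its own baseline. There was no sham-irradiated group, so irradiation, handling and the passage of days cannot be told apart. Serum holds no intact cells. Whether an organ released more of a miRNA or more of its cells were lost cannot be told apart either.

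The libraries held 11174 to 4118401 counts with a median of 280254.5, and 7 of them were under 28025.45 counts (10% of that median). miR-486-5p, from red blood cells, made up 69.8% of a library before irradiation and 73.6%, 71.4% and 73.1% on days 1, 2 and 6 (medians). The share of miR-150-5p, which marks lymphocytes, had a median of 0.203% before irradiation and of 0.117%, 0.0741% and 0.0583% on days 1, 2 and 6. A pair of libraries was identical in every row, the day 1 library labelled RA2694M (8.0 Gy) and the pre-irradiation library labelled RA2265F (7.0 Gy). They held 82153 counts and 3 of the 84 miRNAs, and the comparison in which leaving them out changed a call is named. The pre-irradiation library titled RA2816M carries the name RA2616M in its column, and it was kept under its title.

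The 84 miRNAs made up 7432 counts of the 71861288 in all libraries, or 103 counts per 1000000 counts (CPM). They were detected 2619 times in 12096 combinations of miRNA and library, or 21.7%. Of these detections 47.6% were a single count, 20.7% were 2 counts and 3.89% were 10 counts or more. The total per miRNA had a median of 70.5 counts, with a range of 20 to 471 counts, against a median of 2591 counts for the common miRNAs. A highest single count of at least 10 was reached by 36 of them, and 9 stayed under 5 in every library. A rarely detected miRNA was present at least once in 11 to 30 NHPs, with a median of 21, and 71 of the 84 were never found in all 4 libraries of any NHP. For 31 of the 84 the opposite arm of the same hairpin was a common miRNA. The rarer arm of such a pair is usually the passenger strand, the one that is mostly degraded. For 7 the opposite arm was itself in 15 to 57 libraries, and for 23 it was in fewer than 15. For another 23 no opposite arm could be matched by name, many of them because the name gives no arm. miR-153-3p was among these, although miR-153-1-5p, also of the 84, was matched to it. Arms were paired by name alone, so a missing match does not mean that an arm is absent.

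The limits of the band were not natural gaps. Inside the lower limit, miR-147b, miR-508-3p, miR-542-5p, miR-671-5p and miR-9-3-3p were each detected in 15 libraries, and miR-193a-5p, just outside it, in 14. Inside the upper limit, miR-489-3p was detected in 57 libraries and miR-125a-3p in 56. Just outside it, miR-30c-1-3p and miR-99a-3p were each detected in 58 libraries.

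How many of the 84 miRNAs a library showed followed its total. When the 144 libraries were ordered by total counts and divided into 4 equal parts, the median totals were 68589, 203666, 417839 and 1037507.5 counts. The share of the 84 miRNAs detected was 5.62%, 15.4%, 28.7% and 36.9% from the smallest to the largest part. Over the same parts, the common miRNAs were detected in 56.6%, 75.3%, 88.3% and 90.9% of cases. Libraries of like depth still differed. Among the 19 libraries over 1000000 counts, the number of the 84 detected ranged from 11 to 61, with a median of 38. None of the 84 was seen in 11 libraries.

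**Figure D1:**
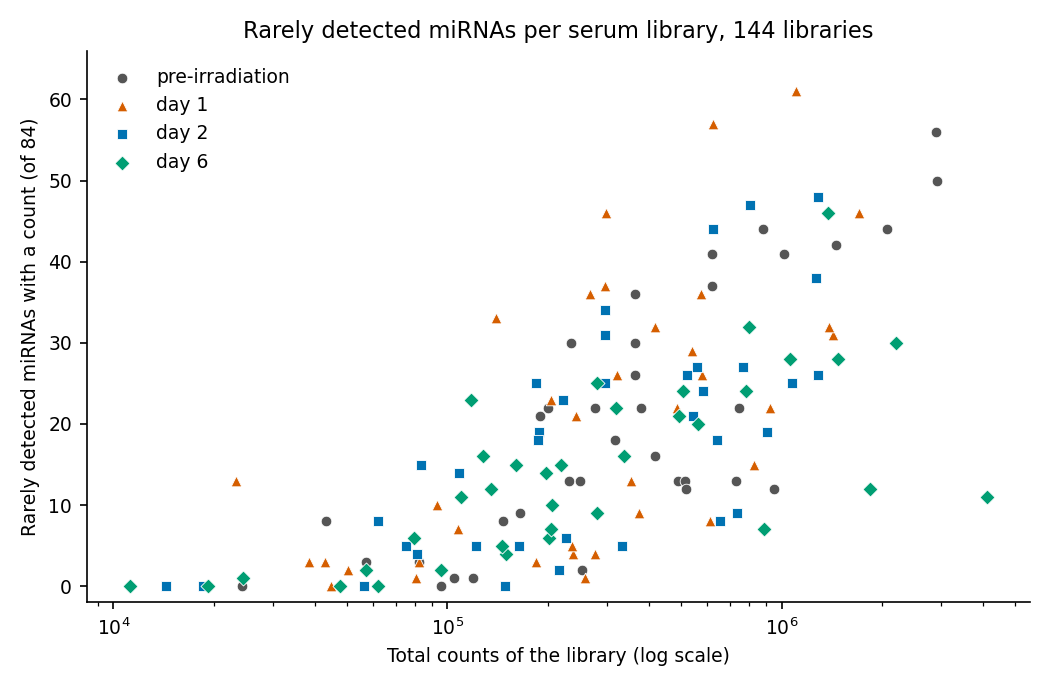
Number of the 84 rarely detected miRNAs with a count (y axis) against the total counts of the library (x axis, log scale), 1 point for each of 144 libraries, with symbols for the time point. The number climbed with the total, and the library of 4118401 counts nevertheless showed 11.

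Detection was less frequent at the end of the time course. Before irradiation 24.6% of the possible detections were made, and on days 1, 2 and 6 the share was 23.8%, 21.5% and 16.7%. For the common miRNAs it was 82.8% before irradiation and 77.1%, 77.8% and 73.5% on days 1, 2 and 6. The median library total was also lowest on day 6, with 363826 counts before irradiation and 286145, 295548 and 204734.5 on days 1, 2 and 6. In libraries thinned to 100000 counts, the expected number of the 84 had a median of 6.91 before irradiation (n = 31) and of 8.48 (n = 28), 7.24 (n = 29) and 6.46 (n = 28) on days 1, 2 and 6. These medians come from fewer libraries than the raw shares, and only the total was matched, not the counts left beside miR-486-5p. What part the library totals had in the lower day 6 share was not tested.

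By RD, the share detected over days 1, 2 and 6 was 22.2% at 6.0 Gy, 22.4% at 6.5 Gy, 16.3% at 7.0 Gy, 20.5% at 7.5 Gy, 17.2% at 8.0 Gy and 25.4% at 8.5 Gy. Before irradiation the same dose groups stood at 20.4%, 18.1%, 20.2%, 17.5%, 34.3% and 37.1%. The groups that were to receive the 2 highest doses thus had the highest shares before any radiation was given. Their median library totals before irradiation, 496429.5 and 568627 counts, were also the highest, against 147228.5 to 427743.5 counts in the other groups. What part the totals had in these shares was not tested. Within day 1 the share was 10.9% at 7.0 Gy and 38.5% at 7.5 Gy, where the median library totals were 172248.5 and 562697 counts. On day 2 it was 15.9% at 7.0 Gy and 12.7% at 7.5 Gy, with medians of 315203.5 and 155923.5 counts. The step from 7.0 to 7.5 Gy thus ran in opposite directions on days 1 and 2. On day 6 the share was 17.7%, 18.5%, 22.2%, 10.3%, 14.5% and 16.9% from 6.0 to 8.5 Gy.

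**Figure D2:**
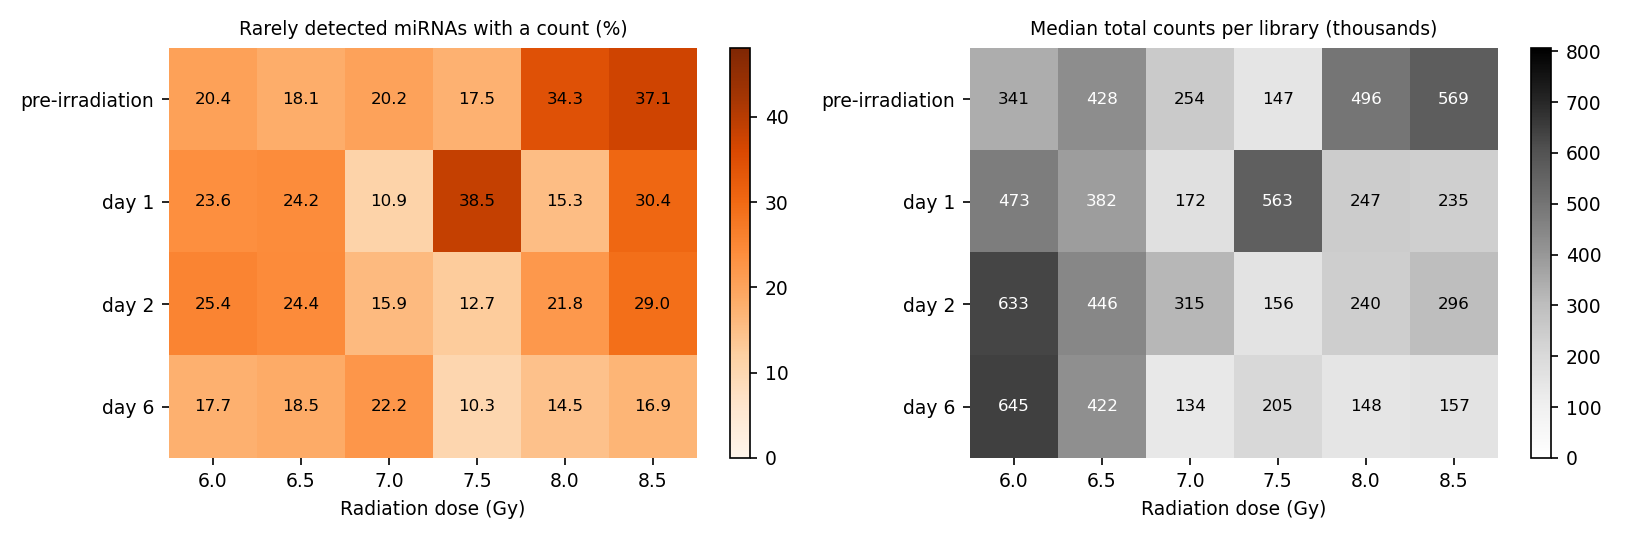
Share of the 84 rarely detected miRNAs with a count (left, percent) and median total counts per library, divided by 1000 (right) for each time point (rows) and radiation dose in Gy (columns), 6 libraries a cell. The share ranged between 10.3% (7.5 Gy, day 6) and 38.5% (7.5 Gy, day 1).

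Against this background 4 miRNAs appeared on day 1. These were miR-216a-5p, miR-216b and miR-217, which are made by the acinar cells of the pancreas, and miR-802, known from mice for its part in glucose metabolism of the liver. In an exact McNemar test over the 36 NHPs, which weighs the NHPs that gained a detection against those that lost it, only these 4 of 419 tested miRNAs passed on day 1 after Benjamini-Hochberg adjustment (0.955%). All 4 were gains and all 4 were rarely detected miRNAs. A miRNA detected in most NHPs before irradiation had little room to gain in this test, and miR-375, detected in all 36, had none. Outside day 1, miR-216a-5p was in 20 libraries, but miR-216b was in 12, miR-217 in 8 and miR-802 in 8. These 3 therefore entered the tested set only through the day on which they were high, and their calls are no independent evidence about the 84 as a group.

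miR-216a-5p was detected in 23 NHPs on day 1, against 3 NHPs before irradiation. Its raw counts had a lowest, median and highest value of 0, 2.5 and 38 on day 1, against 0, 0 and 2 before irradiation. At least 2 counts were reached by 21 NHPs on day 1, against 1 NHP before irradiation. In all, 21 NHPs gained it and 1 lost it (exact McNemar test, p = 1.1e-05, adjusted p = 0.0023). On day 2 it was found in 12 NHPs with a highest count of 17, and on day 6 in 5 NHPs with a highest count of 2.

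miR-216b was detected in 20 NHPs on day 1, against 2 NHPs before irradiation. Its counts had a median of 1 and a highest value of 13 on day 1, against a median of 0 and a highest value of 1 before irradiation. No NHP lost it, while 18 gained it (exact McNemar test, adjusted p = 0.0023). It was seen in 8 NHPs on day 2, where a single library of RA2733F held 16 of the 31 counts, and in 2 NHPs on day 6.

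miR-217 was detected in 15 NHPs on day 1, against 1 NHP before irradiation. Its median was 0 at both times, and its highest count was 16 on day 1, against 3 before irradiation. A gain was seen in 14 NHPs and a loss in 0 (exact McNemar test, adjusted p = 0.017). The low baseline rested on 3 counts in the pre-irradiation library of RA2740F. On day 2 it was present in 7 NHPs with at most 2 counts, and on day 6 in none of 36, where 3 counts over the day 6 libraries would be 0.152 CPM (a limit that covers counting error only).

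miR-802 was detected in 14 NHPs on day 1, against 1 NHP before irradiation. Its highest count was 21 on day 1, against 1 before irradiation, with a median of 0 at both times. The gain in 13 NHPs and loss in 0 passed with an adjusted p of 0.0256 (exact McNemar test). Without any 1 of the 13 NHPs that gained it, the adjusted p was up to 0.0511, and it was also 0.0511 when the 7 libraries of low total were left out. It was present in 7 NHPs on day 2, with a highest count of 8, and in none on day 6.

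**Figure D3:**
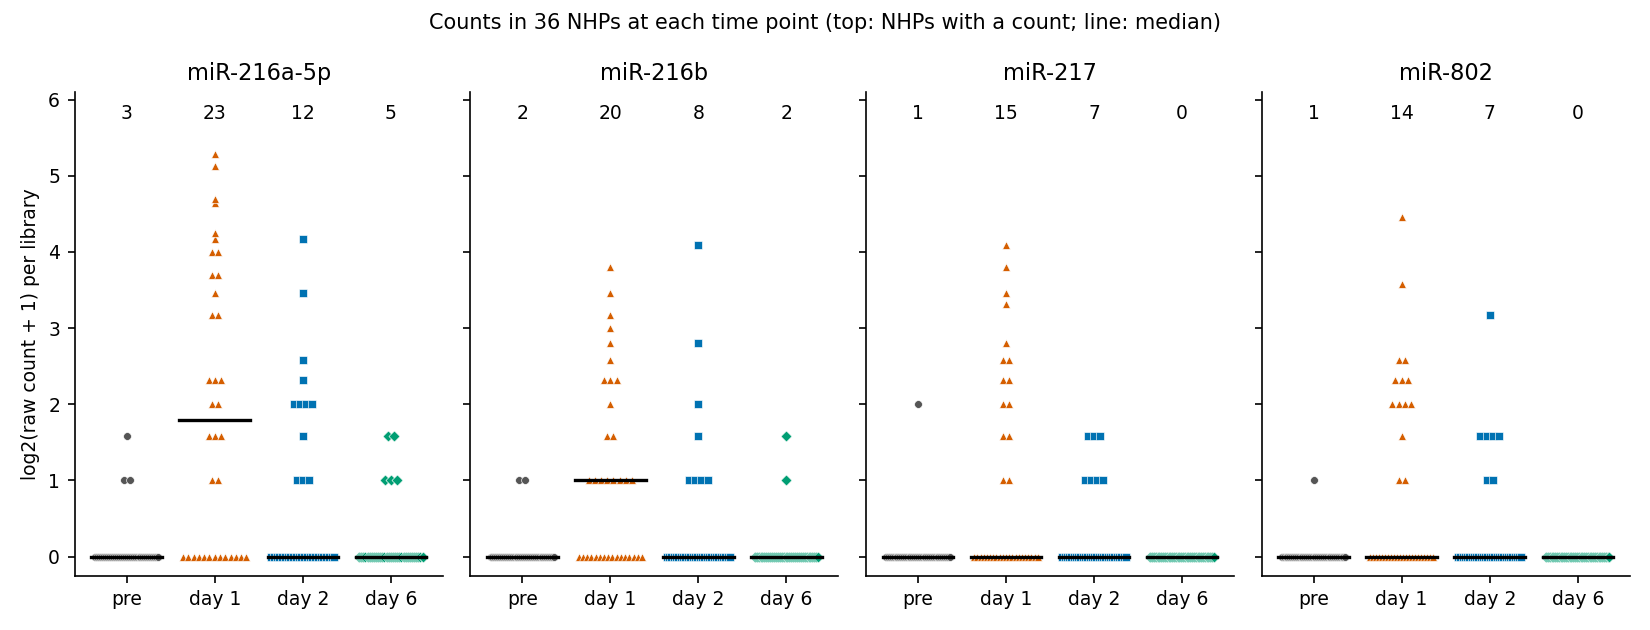
log2 (raw count + 1) per library (y axis) of miR-216a-5p, miR-216b, miR-217 and miR-802 at each time point (x axis), 36 NHPs each, with the median as a line and the number of NHPs with a count on top. On day 1 they were detected in 23, 20, 15 and 14 NHPs, and on day 6 in 5, 2, 0 and 0.

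Summed over the 36 libraries of a time point, miR-216a-5p had 262 counts on day 1 (16.9 CPM), against 4 counts before irradiation (0.19 CPM). miR-216b had 76 counts on day 1, against 2 before irradiation. miR-217 had 84 counts on day 1, against 3 before irradiation. miR-802 had 70 counts on day 1, against 1 before irradiation. Together the 4 miRNAs had 10 counts before irradiation and 492, 112 and 10 counts on days 1, 2 and 6. Their sum was thus highest on day 1 and equal to the baseline sum on day 6.

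The 4 miRNAs were found together. On day 1 all 4 were detected in 11 NHPs, 3 of them in 4 NHPs, 2 in 5 NHPs and 1 in 6 NHPs, while 10 NHPs had none. Each of the 14 NHPs with miR-802 also had miR-216a-5p, and 14 of the 15 with miR-217 did. miR-216a-5p and miR-216b shared 17 NHPs. The hairpins of this pair are neighbours, within 50000 bases of each other, in the RefSeq annotation of the rhesus macaque. No hairpin was matched by name to miR-217 in that annotation, so its position was not compared. Depth moved with the overlap too, for the median library total was 540925 counts in NHPs with all 4, 346889 with any and 138521 with none, and its part in the overlap was not tested.

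Depth was looked at in a subset chosen after seeing the data. In the 19 NHPs whose day 1 library held fewer counts than their own pre-irradiation library, miR-216a-5p was gained by 12 and lost by 0. In the same NHPs miR-216b, miR-217 and miR-802 were each gained by 7 and lost by 0. With 19 NHPs the adjusted p values were 0.102 for miR-216a-5p and 0.149 for the other 3 (exact McNemar test), so none passed. The unadjusted p values, 0.000488 and 0.0156, were the lowest that 12 and 7 gains can give in this test. The subset was thus too small to decide whether these gains depended on depth. When 24 NHPs with at least 100000 counts in both libraries were compared at that depth, all 4 passed in a sign-flip permutation test, with adjusted p values of 0.00419, 0.00419, 0.0444 and 0.0241 for miR-216a-5p, miR-216b, miR-217 and miR-802. At that depth miR-208b-3p, a muscle miRNA, was called as well. With detection set at 2 or more counts, miR-216a-5p passed (adjusted p = 0.000799, exact McNemar test) and the other 3 had adjusted p = 0.0511.

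Each RD was represented. Of 6 NHPs per dose, 4, 5, 4, 5, 4 and 4 showed at least 1 of the 4 miRNAs on day 1 from 6.0 to 8.5 Gy. miR-216a-5p was detected on day 1 in 4, 4, 4, 5, 2 and 4 NHPs from 6.0 to 8.5 Gy, with highest counts of 25, 15, 12, 38, 12 and 24. miR-802 was detected in 3, 2, 0, 4, 1 and 4 NHPs over the same doses. No slope of detection on dose over days 1, 2 and 6 passed for any of the 4. For miR-216a-5p it was -5.71 percentage points per Gy (permutation test over 36 NHPs, two-sided, p = 0.339), and for miR-802 it was 0.95 (p = 0.861).

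Survivors and deceased NHPs, and both sexes, showed these miRNAs. At least 1 of the 4 was detected on day 1 in 10 of 15 survivors and 16 of 21 deceased NHPs. miR-216a-5p was detected in 9 survivors and 14 deceased NHPs, and in 12 males and 11 females. miR-217 was detected in 7 survivors and 8 deceased NHPs, and miR-802 in 7 survivors and 7 deceased NHPs. Counts were also compared by outcome in edgeR, not on day 1 alone but with the 4 libraries of each NHP summed and dose and sex in the fit. There the log2 (Fold change) of survivors against deceased was 0.69 for miR-216a-5p, 0.20 for miR-216b, 0.76 for miR-217 and 0.73 for miR-802, and none passed.

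One more miRNA of the pancreas was common. The list of pancreatic miRNAs held 5 rows, of which 3 were rarely detected, 1 had no count and the other was miR-375, which is made by islet cells and other secretory cells. miR-375 had a median of 50 counts before irradiation and of 343, 115.5 and 54.5 on days 1, 2 and 6. Its log2 (Fold change) was 4.16 ± 0.38 (SE) on day 1 (edgeR, adjusted p = 6.84e-19). In NHPs it was detected in 36 before irradiation and in 34 on each later day, so its change was one of level and not of detection.

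No other rarely detected miRNA passed the McNemar test by day. On day 1, 18 of 419 miRNAs had an unadjusted exact McNemar p under 0.05, among them 8 of the 84. Besides the 4 above these were miR-208b-3p and miR-133b-3p, both of muscle, detected in more NHPs on day 1, and miR-551a and miR-330-5p, detected in fewer. On day 2 the test called 0 of 419 (0%), and 17 had an unadjusted p under 0.05, of which 3 were rarely detected. On day 6 it called 0 of 419 (0%), and 39 had an unadjusted p under 0.05, of which 10 were rarely detected, all of them detected in fewer NHPs. An unpaired Fisher's exact test also called 0 of 419 on day 2 and on day 6.

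The balance of gains and losses leaned to losses as the days went on. On day 1 more NHPs gained than lost detection for 31 of the 84 and fewer for 45. On day 2 the numbers were 24 and 52, and on day 6 they were 18 and 58. The median of gains minus losses over the 84 was -1, -1.5 and -2.5 NHPs on days 1, 2 and 6, and over all 419 it was -1, -1 and -3. The 84 were in this respect like the whole table.

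Among the 84, the lowest p values on day 6 belonged to miR-190a-5p and let-7e-3p. miR-190a-5p was detected in 4 NHPs on day 6, against 17 before irradiation, with a highest count of 1 on day 6 and of 11 before irradiation. let-7e-3p was detected in 4 NHPs on day 6, against 18 before irradiation. miR-374b-3p, whose human hairpin lies in the FTX gene of the X chromosome, was detected in 1 NHP on day 6, against 10 before irradiation. For these 3 the unadjusted exact McNemar p values were 0.00235, 0.00258 and 0.0117, and the adjusted p was 0.361 for each. miR-29b-3p, a repressor of collagen messages, was detected in 8 NHPs on day 6, against 18 before irradiation. Not one of these day 6 differences passed on detection alone.

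**Figure D4:**
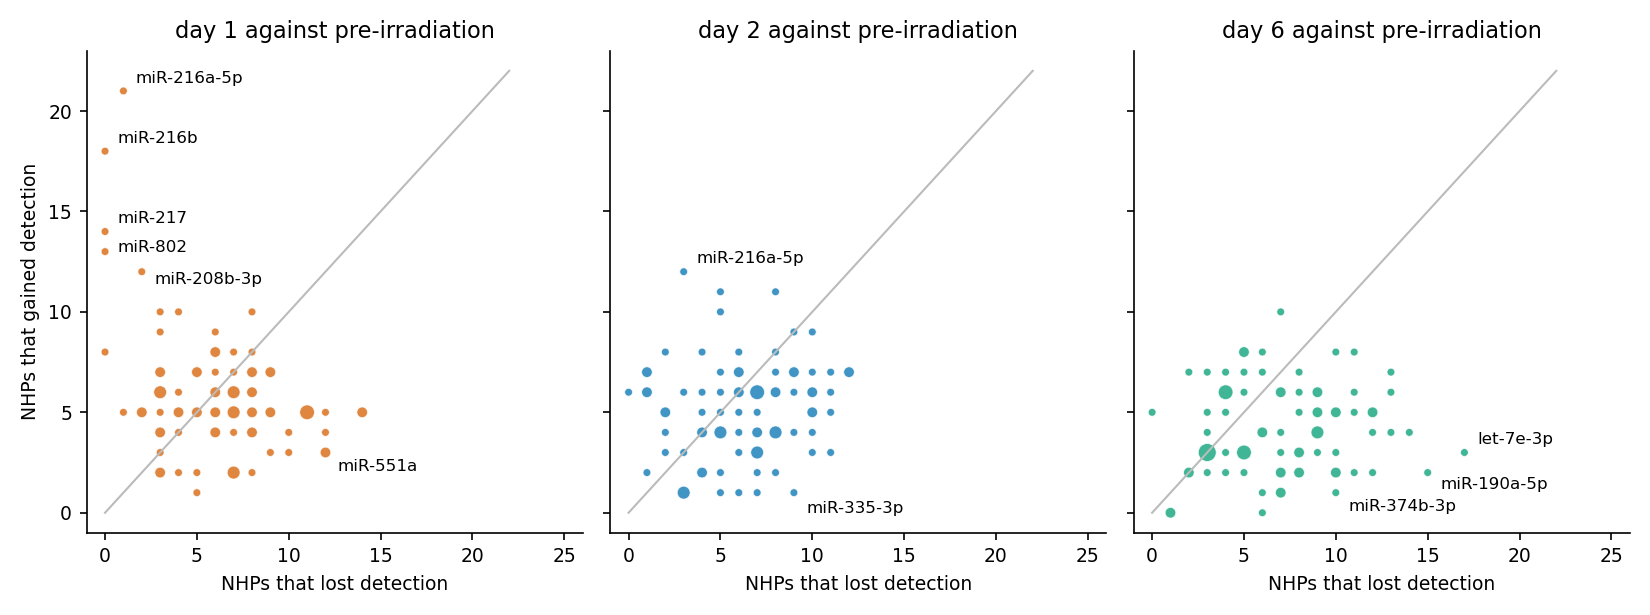
NHPs that gained detection (y axis) against NHPs that lost it (x axis) on days 1, 2 and 6 relative to pre-irradiation, for the 84 rarely detected miRNAs, with larger points where several coincide and a line of equal gain and loss. On day 1 miR-216a-5p, miR-216b, miR-217 and miR-802 stand apart with 21, 18, 14 and 13 gains, and on day 6 most points lie under the line.

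Counts added a second view. The edgeR quasi-likelihood test with TMM factors was fitted on all 419 miRNAs and 144 libraries, each later day against the same pre-irradiation libraries, so the 3 comparisons share their baseline. On day 1, 11 of the 84 passed at an adjusted p under 0.05 and all 11 were higher, beside 25 of the 419 (5.97%), of which 19 were higher (4.53%) and 6 lower (1.43%). On day 2, 6 of the 84 passed and all were higher, beside 13 of the 419 (3.1%), with 10 higher (2.39%) and 3 lower (0.716%). On day 6, 15 of the 84 passed, 12 higher and 3 lower, beside 41 of the 419 (9.79%), with 31 higher (7.4%) and 10 lower (2.39%). Some of these miRNAs reached 15 libraries only through the day on which they were high. On day 1 they were miR-216b, miR-217, miR-802, miR-129-5p, miR-133b-3p, miR-34c-5p and miR-874-5p. On day 2 they were miR-34c-5p and miR-874-5p, and on day 6 miR-34c-5p and miR-511-3p. The numbers called are thus no independent evidence about the 84 as a group. The median log2 (Fold change) of the 84 was 0.32, 0.22 and 0.17 on days 1, 2 and 6, and of all 419 it was 0.01, 0.04 and -0.01. Scaled by library totals alone, the median of all 419 was shifted to -0.35 on day 6, and 13 of 419 passed there, 3 higher and 10 lower, with 2 of the 84 higher (miR-34c-5p and miR-129-5p) and 4 lower. Totals alone gave 13 higher and 2 lower of all 419 on day 1 and 7 higher and 5 lower on day 2, with 8 and 5 of the 84 higher and 0 lower. The Wald test of DESeq2 called 2 of the 84 on day 1 (miR-216a-5p and miR-216b), 0 on day 2 and 0 on day 6. It gave no adjusted p for 34 of the 84 on day 1 and for 79 on day 6, so that on day 6 most were not tested by it.

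The 4 miRNAs of the day 1 gain had the lowest adjusted p values of the 84 here as well. On day 1 the log2 (Fold change) was 5.44 ± 0.51 (SE) for miR-216a-5p, 4.25 ± 0.48 for miR-216b, 4.15 ± 0.50 for miR-217 and 4.01 ± 0.48 for miR-802. Their adjusted p values were 4.53e-18, 1.71e-13, 1.24e-11 and 1.01e-11 (edgeR). On day 2 miR-216a-5p was higher by 2.90 ± 0.50, miR-802 by 2.55 ± 0.47 and miR-216b by 2.49 ± 0.45 on the log2 scale. Without RA2733F the value of miR-216b was 1.58 (adjusted p = 0.00958). miR-217 had a log2 (Fold change) of 1.56 on day 2 and did not pass (adjusted p = 0.116). On day 6 none of the 4 passed.

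The muscle list held 15 rows, of which 2 were among the 84, 3 were common, 4 were in 1 to 14 libraries and 6 had no count. Both muscle miRNAs among the 84 were higher on day 1, and the common ones are not described here. miR-208b-3p, which is encoded within a myosin heavy chain gene of heart and slow muscle, was detected in 19 NHPs on day 1, against 9 before irradiation. Its counts had a median of 1.5 and a highest value of 44 on day 1, against a median of 0 and a highest value of 74 before irradiation, so the groups overlapped. The log2 (Fold change) was 2.09 ± 0.50 (adjusted p = 0.00163, edgeR), and it was 3.65 without RA2475M, the 8.5 Gy NHP with 74 counts before irradiation. miR-133b-3p, a skeletal muscle miRNA, was detected in 10 NHPs on day 1, against 2 before irradiation, and was higher by 1.85 ± 0.42 on the log2 scale (adjusted p = 0.00111). Outside day 1 miR-133b-3p was in 11 libraries. It thus entered the tested set only through the day on which it was high, and its call is no independent evidence. Neither muscle miRNA passed on day 2 or day 6. Together they had 96 counts before irradiation and 289, 88 and 42 on days 1, 2 and 6.

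Of 7 miRNAs of the brain list, 2 passed on day 1. miR-129-5p, which is enriched in neurons, was detected in 10 NHPs on day 1, against 4 before irradiation, with 47 counts against 6. Its log2 (Fold change) was 4.63 ± 0.76 (adjusted p = 4.53e-07, edgeR), and 2.52 without RA2742F (adjusted p = 0.00319). Outside day 1 miR-129-5p was in 12 libraries. It thus entered the tested set only through the day on which it was high, and this call is no independent evidence. miR-219, known for its role in the maturation of oligodendrocytes, was detected in 13 NHPs on day 1, against 7 before irradiation, with a log2 (Fold change) of 1.47 ± 0.45 (adjusted p = 0.0285). Leaving out RA2740F, RA2580M, RA2118F, RA0456F, RA2745F or RA2685M put miR-219 above the threshold, with an adjusted p of up to 0.275. miR-383, miR-9-3-3p, miR-153-1-5p, miR-153-3p and miR-218-5p did not pass on day 1.

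miR-34c-5p passed on all 3 days. It belongs to a family that p53 induces and that is abundant in ciliated epithelium and testis. It was detected in 1 NHP before irradiation and in 5, 6 and 6 NHPs on days 1, 2 and 6, with highest counts of 1, 11, 15 and 25. The 36 NHPs had a median of 0 at every time point, so that few NHPs carried the change. With day 1, day 2 or day 6 left out it was in 13, 12 or 12 libraries. It thus entered the tested set only through days on which it was high, and its calls are no independent evidence. The log2 (Fold change) was 2.35 ± 0.54, 2.84 ± 0.54 and 3.55 ± 0.56 on days 1, 2 and 6 (adjusted p = 0.00116, 4.42e-05 and 1.01e-06, edgeR). Without RA2733F the day 1 value was 0.76 (adjusted p = 0.402), without RA0456F the day 2 value was 1.67 (adjusted p = 0.0297), and without RA1782F the day 6 value was 1.76 (adjusted p = 0.00932).

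The remaining calls of days 1 and 2 were small in count. miR-95-5p was detected in 12 NHPs on day 1, against 5 before irradiation, with 19 counts against 5, and was higher by 1.44 ± 0.41 (adjusted p = 0.0171, edgeR). Without RA2691M or RA2743F its adjusted p was 0.0534 or 0.0522. miR-874-5p was detected in 3 NHPs before irradiation, 6 on day 1 and 6 on day 2, with log2 (Fold change) of 1.35 ± 0.38 on day 1 and 1.69 ± 0.39 on day 2. Leaving out any of 15 NHPs put its day 1 value above the threshold. It was in 12 libraries outside day 1 and in 12 outside day 2, so it entered the tested set only through these days. Without RA0456F its day 2 value was 0.97 (adjusted p = 0.405), and without RA2576M its adjusted p was 0.0611. miR-152-5p was detected in 15 NHPs on day 2, against 10 before irradiation, and was higher by 1.43 ± 0.41 (adjusted p = 0.0229). It was above the threshold without any 1 of 6 NHPs, with an adjusted p of up to 0.0842. With the NHP as a block in the fit, which pairs the libraries of 1 animal, miR-95-5p (adjusted p = 0.129) and miR-874-5p (adjusted p = 0.565) no longer passed on day 1. On day 2 miR-152-5p (adjusted p = 0.121) and miR-874-5p (adjusted p = 0.346) no longer passed under the same block.

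On day 6 the counts of 3 rarely detected miRNAs were lower. miR-374b-3p had 1 count in all on day 6, against 36 before irradiation, and its log2 (Fold change) was -2.30 ± 0.42 (adjusted p = 2.19e-05, edgeR). miR-190a-5p had 4 counts on day 6, against 59 before irradiation, and its log2 (Fold change) was -2.16 ± 0.47 (adjusted p = 0.000503). Both also passed with the NHP as a block, with log2 (Fold change) of -2.39 and -1.97. miR-449a-5p, of the same seed family as miR-34c-5p and known from multiciliated cells, was at 0 in all 36 NHPs on day 6, against 16 counts in 6 NHPs before irradiation. With the pre-irradiation libraries left out it was in 10 libraries. It thus entered the tested set only through the baseline to which day 6 is compared, and its fall is no independent evidence. Taking 3 counts over the day 6 libraries as the limit, its share of all counts was at least 4.98-fold lower on day 6, a bound that covers counting error on day 6 only. Its fitted log2 (Fold change) of -1.69 (adjusted p = 0.00784) depends on the prior count and is no such bound. It did not pass with the block (adjusted p = 0.342) or without RA2689M (adjusted p = 0.101), and in DESeq2 its log2 (Fold change) was 0.22.

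Most of the day 6 calls depended on the fit. With the NHP as a block, 3 of the 15 calls stayed, namely miR-34c-5p (2.70, adjusted p = 0.00425), miR-190a-5p (adjusted p = 0.0305) and miR-374b-3p (adjusted p = 0.00232). miR-345 was detected in 10 NHPs on day 6, against 7 before irradiation, with a highest count of 54, against 6. Its log2 (Fold change) was 3.17 ± 0.64 (adjusted p = 0.000128), and 1.47 with the block (adjusted p = 0.287). It passed without each NHP in turn, at 2.46 to 3.59. miR-383 had 82 counts on day 6, against 15 before irradiation, of which 75 were in the library of RA1782F. Its log2 (Fold change) of 3.14 ± 0.59 became -0.37 without that NHP. miR-129-5p had 65 counts on day 6, of which 59 were in the same library, and its log2 (Fold change) of 3.82 ± 0.70 became 0.57 without it. miR-576-5p had 33 counts on day 6, of which 27 were in the library of RA0724F, and its 1.96 ± 0.55 became -0.29 without it.

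Of the other day 6 calls, miR-187-5p passed without each NHP in turn, and the remaining 6 did not. miR-511-3p lies in an intron of the macrophage mannose receptor gene, and it was detected in 9 NHPs on day 6, against 5 before irradiation. Its log2 (Fold change) was 1.59 ± 0.42 (adjusted p = 0.00594), with an adjusted p of 0.0668 without RA2733F. Outside day 6 miR-511-3p was in 12 libraries, so it entered the tested set only through the day on which it was high. miR-184, known from lens and cornea, was detected in 7 NHPs on day 6, against 2 before irradiation, and was higher by 2.15 ± 0.66 (adjusted p = 0.0206). Leaving out RA0456F, RA2689M or RA2116F put miR-184 above the threshold, with an adjusted p of up to 0.147. miR-187-5p had 37 counts on day 6, against 13 before irradiation, and miR-873-3p had 26 against 11. Their log2 (Fold change) was 1.69 ± 0.48 and 1.92 ± 0.48, and miR-873-3p had an adjusted p of 0.0853 without RA1782F. The last 3 calls were miR-589 (2.02 ± 0.59), miR-324-5p (1.70 ± 0.57) and miR-95-5p (1.34 ± 0.43). miR-589 was at 1.32 without RA0724F (adjusted p = 0.166) and at 1.71 without RA1782F (adjusted p = 0.0653). miR-324-5p was at 0.96 without RA1782F (adjusted p = 0.412) and was above the threshold without any 1 of 9 NHPs. miR-95-5p was above the threshold without RA2740F, RA2689M, RA2694M, RA2685M or RA2116F, with an adjusted p of up to 0.10.

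**Figure D5:**
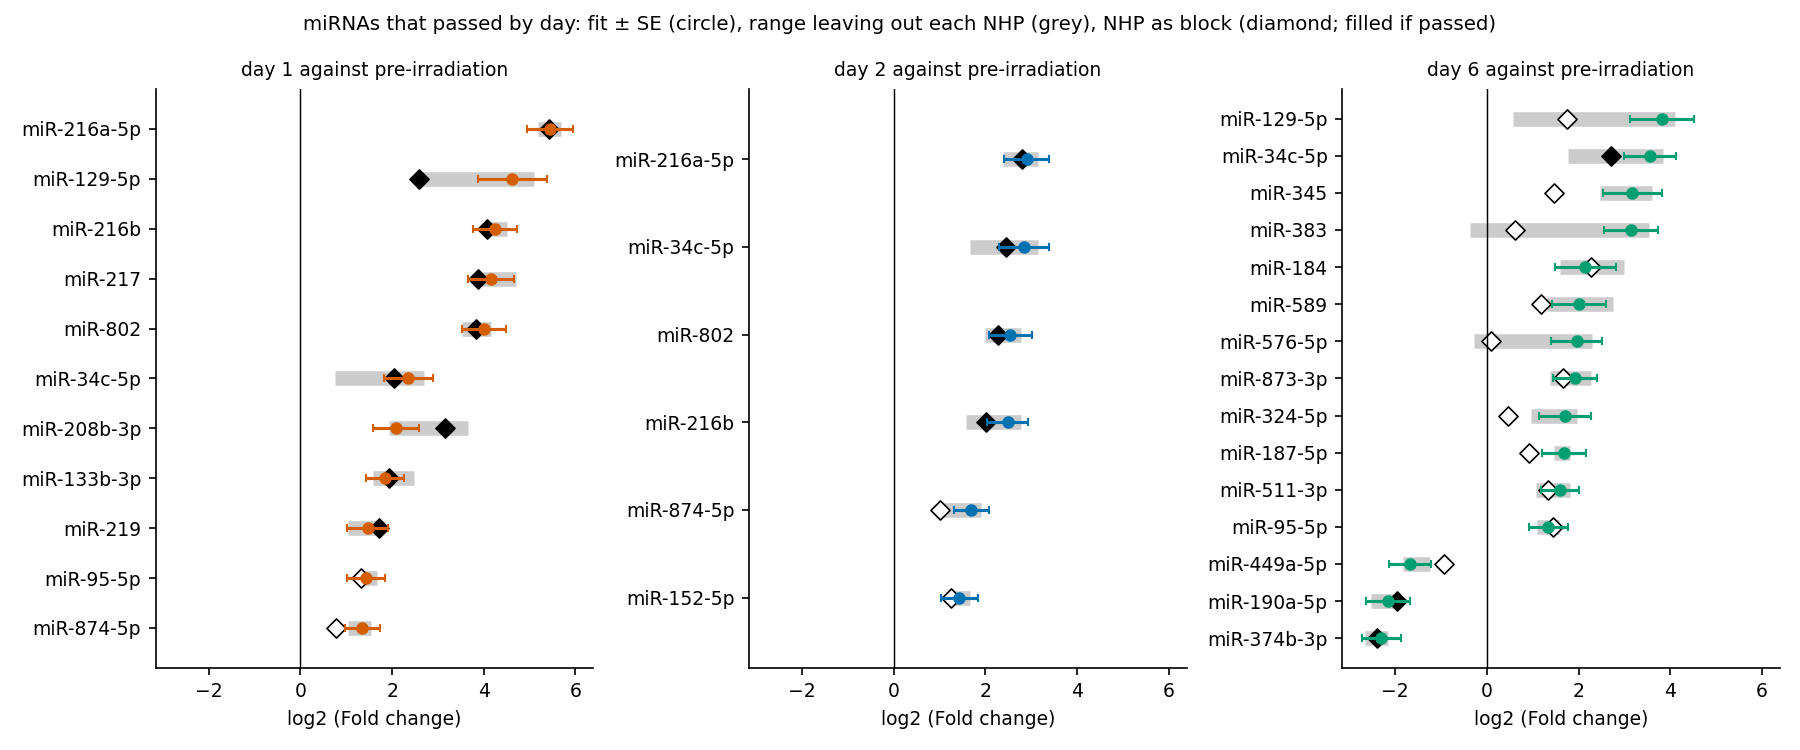
log2 (Fold change) against pre-irradiation (x axis) of the rarely detected miRNAs that passed on days 1, 2 and 6: circles and bars are the fit ± SE, grey bands the range when each NHP is left out, and diamonds the fit with the NHP as a block, filled where it passed. On day 1, 9 of 11 diamonds are filled, and on day 6, 3 of 15.

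A pair of day 6 libraries held much of these counts. That of RA1782F (6.5 Gy) had 1840802 counts, yet showed 12 of the 84 miRNAs, with 75 counts of miR-383, 59 of miR-129-5p, 31 of miR-345, 25 of miR-34c-5p and 21 of miR-589. That of RA0724F (6.0 Gy) had 4118401 counts and showed 11, with 54 counts of miR-345, 36 of miR-589 and 27 of miR-576-5p. The raw counts of these few miRNAs were thus high where most of the 84 were missing. Against the library total, miR-345, miR-589 and miR-576-5p were at 13.1, 8.74 and 6.56 CPM in the library of RA0724F. miR-383 and miR-129-5p were at 40.7 and 32.1 CPM in that of RA1782F. The TMM factors were 0.0893 for RA0724F, the lowest of all libraries, and 0.225 for RA1782F. What part depth and these factors had in the calls was not tested. The library with the most of the 84 was that of RA2116F on day 1 (8.5 Gy), which showed 61 in 1106427 counts. A count of 10 or more for any of the 84 was found in 40 libraries, and 3 or more such miRNAs in 14.

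For dose, detection gave no call. The slope of the number of later days with a detection on dose was tested by permutation over the 36 NHPs, and 0 of 419 passed (0%), with 21 at an unadjusted p under 0.05, of which 5 were rarely detected. The slopes before irradiation called 0 of 419 (0%, 14 unadjusted, 9 of them rarely detected), and those of the change from before 0 of 419 (0%, 31 unadjusted, 8 rarely detected). miR-589 had the steepest slope over the later days, -18.1 percentage points per Gy (permutation test, p = 0.00121, adjusted p = 0.507). It was detected in 12, 9, 2, 4, 6 and 2 of 18 later libraries from 6.0 to 8.5 Gy. miR-877-3p had a slope of -10.2 (permutation p = 0.00685) and miR-133b-3p one of 10.5 (permutation p = 0.022), both with an adjusted p of 0.915. miR-133b-3p was detected in 2, 2, 1, 3, 4 and 7 of 18 later libraries from 6.0 to 8.5 Gy. The median slope of the 84 was 0.32 percentage points per Gy over the later days and 7.14 before irradiation, against -1.27 and 3.81 over all 419.

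On counts summed per NHP over days 1, 2 and 6, 5 of the 84 were lower with dose in edgeR, beside 38 of 419 (9.07%), of which 3 were higher and 35 lower. Without the identical libraries 6 of the 84 passed, the same 5 and miR-221-5p, which was higher with dose. miR-589 changed by -1.82 ± 0.41 on the log2 scale per Gy (adjusted p = 0.00186), miR-345 by -1.45 ± 0.45 and miR-324-5p by -1.28 ± 0.40 (both adjusted p = 0.0333). Summed over the later days, miR-589 had 63, 44, 2, 5, 17 and 2 counts from 6.0 to 8.5 Gy. miR-383 changed by -2.87 ± 0.71 per Gy and miR-576-5p by -1.27 ± 0.41. These are miRNAs with high raw counts in the day 6 libraries of RA1782F or RA0724F, both of them from the lower doses. Without RA1782F miR-383 was at -0.52 (adjusted p = 0.727). Without RA0724F miR-576-5p was at 0.03 (adjusted p = 0.997), miR-345 at -0.81 (adjusted p = 0.484), miR-324-5p at -0.86 (adjusted p = 0.363) and miR-589 at -1.30 (adjusted p = 0.0845), and 1 of the 5 calls was left. Without RA2116F miR-345, miR-324-5p and miR-576-5p were above the threshold, and miR-576-5p was so without any 1 of 6 NHPs. Without RA2733F miR-345 was at -2.24 (adjusted p = 0.000832). Scaled by library totals alone, which moved the median slope of all 419 to 0.27, 0 of the 84 passed.

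Before irradiation, when dose was only a future assignment, 2 of the 84 passed on dose beside 7 of 419 (1.67%). They were miR-133b-3p (1.26 ± 0.29 per Gy) and miR-217 (-0.98 ± 0.23 per Gy), both with an adjusted p of 0.0347 (edgeR). Without the identical libraries both passed, beside 4 of 419. Each rested on very few libraries. All 6 pre-irradiation counts of miR-133b-3p were in 2 NHPs of the 8.5 Gy group, and its slope was 0.39 without RA2475M (adjusted p = 0.537). miR-217 had 3 counts in a single NHP, RA2740F, and a slope of 0 without it. Leaving out any of RA0724F, RA2445M, RA2598M, RA2116F or RA2475M left neither called, and without RA2743F miR-217 was not called. For the change from before irradiation, 0 of 419 passed (0%) in edgeR, with 33 at an unadjusted p under 0.05, of which 11 were rarely detected, and DESeq2 called 0 of the 84.

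With the 4 libraries of an NHP summed and dose, sex and survival in 1 fit, 1 of the 84 was lower in survivors, beside 2 of 419 called (0.477%). This was miR-449a-5p, with a log2 (Fold change) of survived against deceased of -4.08 ± 0.79 (adjusted p = 0.00256, edgeR). It was detected in 2 of 60 libraries of survivors with 2 counts, against 14 of 84 libraries of deceased NHPs with 56 counts. It was in 16 libraries in all, so it entered the tested set only through the group in which it was high. In NHPs these were 2 of 15 survivors, against 9 of 21 deceased. Before irradiation it was found in 1 survivor and 5 deceased NHPs, and on day 2 in 0 survivors and 7 deceased NHPs. Its log2 (Fold change) ranged between -4.55 and -3.74 when each NHP was left out, and passed each time, while DESeq2 gave an adjusted p of 0.186 and called miR-576-5p in its place. For males against females edgeR called 0 of 419 (0%), with 50 at an unadjusted p under 0.05, of which 10 were rarely detected, and DESeq2 called 0 of the 84. miR-208b-3p had the value of 2.05 ± 0.62 in males against females (adjusted p = 0.245).

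By family and cluster, the 84 were uneven. None of the 37 rows of the placental C19MC cluster was among them, as 29 of those had no count and 8 had a count in 1 to 14 libraries. The X-linked cluster of miR-424, miR-450, miR-503 and miR-542, of which miR-503 restrains the cell cycle, gave 5, and 0 of these passed on any day in the edgeR fit. They were detected 39 times before irradiation, and 48, 36 and 21 times on days 1, 2 and 6. miR-371-5p, miR-372-3p and miR-373, of a cluster known from human embryonic stem cells, were detected 36 times before irradiation, and 35, 33 and 23 times on days 1, 2 and 6, and 0 of the 3 passed. The 3 pancreatic miRNAs were detected 6 times before irradiation, and 58, 27 and 7 times on days 1, 2 and 6. The 2 muscle miRNAs were detected 11 times before irradiation, and 29, 22 and 13 times on days 1, 2 and 6.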

How the data were processed

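Serum small RNA was sequenced for 36 NHPs at 4 time points (144 libraries). The deposited table held raw counts per mature miRNA. The authors demultiplexed the reads with bcl2fastq and counted them in a genomics workbench against miRBase 22.1, and the counts carried no normalisation. The 84 rarely detected miRNAs and the lists were chosen with earlier results of these data known. A miRNA with at least 1 count was called detected. Tests covered the 419 miRNAs counted in 15 or more libraries, and p values were adjusted over all of them by Benjamini-Hochberg with a threshold of 0.05.

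Detection by day was tested with exact McNemar tests and detection by dose with 100000 permutations of dose over NHPs, both two-sided. Counts were fitted with the quasi-likelihood test of edgeR 4.0.16 (limma 3.58.1, R 4.3.3) with TMM factors, which were between 0.0893 and 4.58. DESeq2 1.42.0, other scalings, no filter, a block per NHP, a stricter detection limit, thinning to 100000 counts, and leaving out single NHPs, low totals and the identical libraries were alternatives. The procedures were tested on simulated data. Libraries were paired by the NHP in their titles, a pairing that the identical pair of libraries and the RA2816M title put in doubt for those NHPs. Deviations of same-named libraries from group means correlated with a mean r of 0.0764 over 216 pairs, against 0.0101 over 7560 other pairs. The miRNAs named are all that passed a test, those with the most gains and losses by day, the steepest dose slopes, the highest single counts and those at both limits, with further members of the lists as examples. Python 3.11.15, numpy 2.4.6, pandas 2.3.3, scipy 1.17.1 and matplotlib 3.10.9 were used. Totals of 11174 to 4118401 counts mean that 1 count was worth very different levels, and a miRNA at 0 in a small library was not detectable at that depth. Sequences of the miRNAs were not used here.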

Additional observations from a re-analysis of the deposited data

Results flagged for a closer look

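Of 24 groups of 6 NHPs (a dose at a time point), 3 held a library whose number of rarely detected miRNAs stood apart from the others by Dixon's test at the 95% level, which compares the gap to the nearest library with the range of the 6. Chance gives this in about 1 group in 20. The library of RA2576M before irradiation (6.5 Gy) showed 36 of the 84 miRNAs in 364433 counts, while the other 5 showed 8 to 13. The library of RA1547M on day 1 (6.5 Gy) showed 57 in 621498 counts, and the nearest of the others showed 22. The library of RA2816M on day 6 (8.0 Gy) showed 0 in 47806 counts, while the others showed 12 to 16.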

How the results depend on the processing

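The day 1 gains were called for 1 miRNA with detection at 2 or more counts. They were called for 0 among NHPs with a smaller library on the later day, a subset too small to decide about them. That setting was chosen after seeing the data and called 1 (let-7e-3p, lost) on day 6. Leaving out each NHP gave 3 to 4 on day 1. An unpaired Fisher's exact test, with no replicate block, called 4. DESeq2 called 2 of the 84 on day 1, 0 on day 2 and 0 on day 6, and gave no adjusted p for 34, 0 and 79 of them. Library totals alone called 6 on day 6 and 0 for dose over the later days, and the NHP as a replicate block called 9, 4 and 3 on days 1, 2 and 6. For dose, DESeq2 called 2 over the later days, with no adjusted p for 73 of the 84, and 0 before irradiation. Leaving out each NHP gave 1 to 7 over the later days, 0 to 3 before irradiation and 0 to 1 for the change. For survival, no filter called 3, DESeq2 called 1 (miR-576-5p in place of miR-449a-5p) and leaving out each NHP gave 1 to 2. For sex, no filter called 1 (miR-208b-3p).

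The direction turned for miR-383 on day 6 (-0.37 to 3.54 with each NHP left out), miR-576-5p on day 6 (-0.29 to 2.30) and on dose (-1.52 to 0.027), and for miR-449a-5p on day 6 in DESeq2 (0.22). With the single NHPs named in the report as the exception, the cause of these shifts was not tested. On day 1, miR-216a-5p, miR-216b, miR-217, miR-802, miR-129-5p, miR-133b-3p and miR-208b-3p passed in edgeR with the block, with either other scaling and with each NHP left out, and of these DESeq2 called miR-216a-5p and miR-216b. Outside day 1, miR-216b, miR-217, miR-802, miR-129-5p and miR-133b-3p were each in fewer than 15 libraries. They entered the tested set only through that day, so their calls are no independent evidence. Counts of 1 to 3 in most detections limit all statements.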

Other observations

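Further values concern rarely detected miRNAs outside the comparisons that passed. On day 6, miR-628-5p was detected in 7 NHPs, against 16 before irradiation, and miR-542-3p in 6 NHPs, against 16 before irradiation. On the same day miR-372-3p was detected in 2 NHPs, against 10 before irradiation, and miR-335-3p in 3 NHPs, against 11 before irradiation. On day 1, miR-551a was detected in 7 NHPs, against 16 before irradiation, and miR-330-5p in 5 NHPs, against 14 before irradiation. Also on day 1, miR-193b-5p was detected in 8 NHPs, against 17 before irradiation, and miR-196a-5p, from a HOX cluster, in 9 NHPs, against 18 before irradiation. None of these passed on detection after adjustment. On day 1 (8.0 Gy) the library of RA2733F held 5 of the 84 miRNAs in 236317 counts, each with at least 10 counts, and miR-345 was the highest with 30. miR-216a-5p, found in 43 libraries, was the only arm of its hairpin with a count, as miR-216a-3p was in 0 libraries. Over the later days, the slope of detection on dose was 9.52 percentage points per Gy for miR-548j-5p, 7.94 for miR-940 and 7.94 for miR-9-3-3p. It was -6.67 for miR-942-3p and -6.03 for miR-615-3p, and none of the 5 passed after adjustment.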
